A study of Mus musculus with 24 samples.

Results

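The epidermal growth factor (EGF) family was followed across 24 mammary tumors: the EGF receptor ligands Tgfa, Areg, Ereg, Btc, Hbegf and Egf, the neuregulin Nrg1, and the receptors Egfr, Erbb2 and Erbb3. These 10 genes were chosen with earlier results of these data known. Every non-control probe that the arrays' annotation assigned to 1 of them was then taken by name, whatever the probe's values. That gave 12 of 39429 probes, 3 of them for Egfr, and all 12 passed the filter on signal. With the brightest probe standing for each gene, the 10 members were among 20942 genes tested.

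The tumors arose in female BALB/c mice given the carcinogen DMBA by gavage around puberty, so every group, the LFD group included, was DMBA-treated. Mice ate a low-fat diet (LFD) or a diet rich in saturated fat from animals (HFD) from weaning, and part of each set changed diet in young adulthood (LFD-HFD and HFD-LFD). The labels give 5 late LFD, 3 early and 6 late HFD, 4 late LFD-HFD, and 3 early and 3 late HFD-LFD tumors. "Early" and "late" refer to the time of tumor onset, and no LFD or LFD-HFD tumor here was early. The labels do not tie tumors to mice, so that p-values measure the spread between these tumors, which may include technical spread.

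EGF family ligands are made as membrane proteins, are released by sheddases such as Adam17, and bind receptor tyrosine kinases that signal as pairs. Erbb2 binds no ligand itself, Erbb3 has little kinase activity and signals through its partner, and neuregulins bind Erbb3 and Erbb4. In the mammary gland, amphiregulin (Areg) is the ligand that estrogen induces during ductal growth at puberty, and an excess of TGF-alpha (Tgfa) drives hyperplasia and tumors in mice.

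Each tumor shared its array with a reference RNA from 11 mouse cell lines, and values are log2 ratios of tumor over reference. A ratio compares a gene between tumors, and the ratios of different genes are not on 1 scale of abundance. The study's methods name the dyes in the opposite order to the labels. The labels place tumor RNA in cyanine 5. The signals decided between them, since a common reference should vary less than tumors. Cyanine 5 varied more from array to array, with a median SD of 0.54 (log2) against 0.22 for cyanine 3, and was taken as the tumor channel. There were 7 slides and 3 scan sessions. Slide 2 held the 3 early HFD tumors and no others, and the 3 early HFD-LFD tumors shared slide 4 with 1 late LFD-HFD tumor. The 7 late tumors on slides 6 and 7 had rows of dimmed cyanine 5, which were left out, and this removed the only spots of Ereg and Hbegf on the 3 arrays of slide 7. Among the markers of mammary epithelium, 11 of 12 luminal and 6 of 6 milk protein genes passed the filter.

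Tgfa and Areg were the members called between early and late tumors, in opposite directions. Their promoters are printed for this reason, as 300 bases around the start of the gene (RefSeq, GRCm38.p6). That of Tgfa is at chr6:86194972-86195271 and that of Areg at chr5:91139349-91139648, both on the plus strand. Capitals mark matches, on either strand, to the GC box GGGCGG, the cyclic AMP response element TGACGTCA, the AP-1 site TGACTCA and the TATA box TATAAA.
Tgfa: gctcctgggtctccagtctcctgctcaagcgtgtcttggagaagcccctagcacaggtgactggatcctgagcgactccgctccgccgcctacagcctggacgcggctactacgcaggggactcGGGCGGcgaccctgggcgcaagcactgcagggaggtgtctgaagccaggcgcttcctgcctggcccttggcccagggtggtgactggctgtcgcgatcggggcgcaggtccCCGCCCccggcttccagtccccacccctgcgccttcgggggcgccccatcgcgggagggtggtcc
Areg: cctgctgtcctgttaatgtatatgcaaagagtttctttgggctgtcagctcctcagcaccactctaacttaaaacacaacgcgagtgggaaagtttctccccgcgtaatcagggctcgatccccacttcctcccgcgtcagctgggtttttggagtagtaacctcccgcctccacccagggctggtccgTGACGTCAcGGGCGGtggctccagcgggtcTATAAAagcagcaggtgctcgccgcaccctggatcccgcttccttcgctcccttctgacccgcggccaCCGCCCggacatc
The Areg window held 1 cyclic AMP response element, 1 TATA box and 2 GC boxes, and the Tgfa window held 2 GC boxes and neither of the other elements nor an AP-1 site. Of 32851 promoter windows of this length, 35.7% held a GC box, 1.79% the cyclic AMP response element, 5.2% the AP-1 site and 13.6% the TATA box.

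Sequences of 4 probes, which lie in coding sequence, are shown because they define which part of the transcript was measured. Coordinates are those of the array file, on mm9. The Areg probe is at chr5:91570090-91570149 (plus strand), the Erbb3 probe at chr10:128006424-128006483 and the Nrg1 probe at chr8:32928500-32928559 (both minus strand), and the most upstream of the Egfr probes at chr11:16783556-16783615 (plus strand). Capitals mark the stop codon where the probe ends on one.
Areg probe: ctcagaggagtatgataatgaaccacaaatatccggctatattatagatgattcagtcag
Erbb3 probe: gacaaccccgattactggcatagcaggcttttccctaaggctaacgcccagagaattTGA
Nrg1 probe: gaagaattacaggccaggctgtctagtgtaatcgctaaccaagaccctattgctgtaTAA
Egfr upstream probe: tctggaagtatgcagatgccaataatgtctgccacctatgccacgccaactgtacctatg

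Tgfa, which encodes TGF-alpha, was higher in early tumors. Its log2 ratio was 2.53, 3.24 and 2.66 in the 3 early HFD tumors and 2.32, 2.22 and 1.97 in the 3 early HFD-LFD tumors. Among late tumors it was 0.09, 0.75, 1.32, 1.27 and 0.11 on LFD, -0.19, -0.40, -0.32 and -0.03 on LFD-HFD, and 0.70, -0.02 and 0.79 on HFD-LFD. The 6 late HFD tumors ran from 0.00 through a median of 0.51 to 1.36. Every early tumor lay above every late tumor, with a gap of 0.61 log2 units between the lowest early and the highest late value. The same held for 54 of 20942 genes (0.258%).

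The difference in Tgfa was 2.05 ± 0.25 (SE) log2 units over 6 early and 18 late tumors, or 4.15-fold higher in early tumors (limma, adjusted p = 2.74e-05). It was 7.20-fold with the scanner software's log ratio and 6.62-fold with median centring in place of loess, so the size of the fold depended on the processing. The median cyanine 3 signal of the Tgfa probe was 48 over all tumors, about the offset of 50 added to each dye. Median cyanine 5 was 1654 in early and 164 in late tumors. The part of the offset in the fold was not tested. Within HFD the difference was 2.18 ± 0.30 (adjusted p = 0.00063), in a comparison that called 5.84% of all genes higher and 7.34% lower. Within HFD-LFD it was 1.68 ± 0.34 (adjusted p = 0.0216), where 0.855% of all genes were called, 0.516% higher and 0.339% lower. The test of the difference between these changes gave 0.50 ± 0.46 (adjusted p = 0.767). The Tgfa probe, at chr6:86224838-86224897 on mm9, had 10 spots on each array, whose median SD within an array was 0.11 log2 units.

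Slide and onset were only partly separable. On slide 4, the late LFD-HFD tumor had a Tgfa ratio of -0.32, against 1.97 to 2.32 in the 3 early tumors beside it. In scan session 1, 3 early tumors ran from 2.53 to 3.24 and 8 late tumors from 0.00 to 1.32, and in session 2, 3 early tumors ran from 1.97 to 2.32 and 3 late tumors from -0.32 to 0.70. With slide as a fixed block the difference was 2.49, with an adjusted p of 0.0723, since only slide 4 then holds both kinds of tumor. The call within HFD-LFD was lost without early HFD-LFD tumor 1, 2 or 3, with adjusted p = 0.114, 0.105 and 0.0637, and without late HFD-LFD tumor 2 (adjusted p = 0.152). It was also lost with slide as a random block (adjusted p = 0.0965), with the scanner software's log ratio (0.101), with dimmed rows kept (0.065) and in the tumor channel alone (0.0705).

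**Figure D1:**
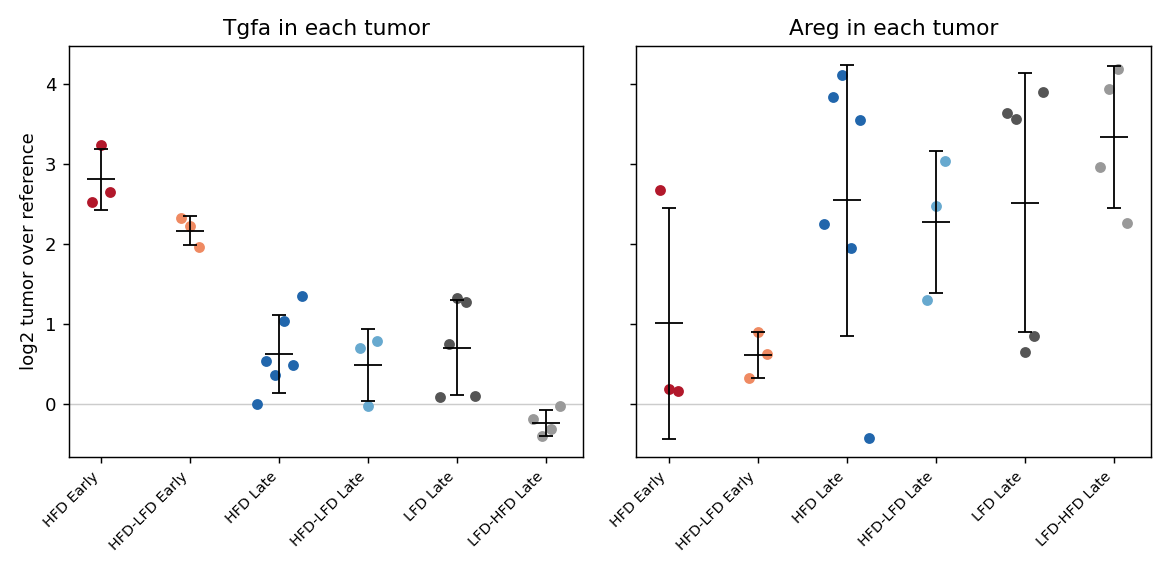
Log2 tumor over reference ratio of Tgfa (left) and Areg (right) in each of 24 tumors, by diet and onset; points are tumors and bars the group mean ± SD. All 6 early tumors are at or above 1.97 for Tgfa and all 18 late tumors at or below 1.36, while for Areg 5 early tumors lie at 0.90 or lower and early HFD tumor 1 at 2.68.

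Areg, which encodes amphiregulin, was lower in early tumors. Its log2 ratio was 2.68, 0.19 and 0.16 in early HFD tumors and 0.32, 0.90 and 0.62 in early HFD-LFD tumors. It was 3.63, 3.56, 0.65, 0.85 and 3.91 in late LFD tumors, 2.97, 3.95, 4.19 and 2.27 in late LFD-HFD tumors, and 1.31, 2.48 and 3.04 in late HFD-LFD tumors. Late HFD tumors ran from -0.42 through a median of 2.90 to 4.12. The groups overlapped: late HFD tumor 6 and late LFD tumors 3 and 4 lay at or below 0.85, in or under the range of the 5 low early tumors, and early HFD tumor 1 lay among the late tumors. All 6 early tumors were below the median of the late tumors, 3.01. The cyanine 3 signal of the Areg probe was 281, 177 and 165 in early HFD tumors and 62, 79 and 68 in early HFD-LFD tumors. In late HFD-LFD tumors it was 68, 70 and 187. The part of this signal in the Areg ratios was not tested.

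The difference in Areg was -1.86 ± 0.57 log2 units, or 3.63-fold lower in early tumors (limma, adjusted p = 0.0273). Within HFD it was -1.54 ± 0.90 (adjusted p = 0.260) and within HFD-LFD -1.66 ± 1.04 (adjusted p = 0.462), so neither diet alone passed the test. The call over all tumors was lost without early HFD tumor 2 (adjusted p = 0.0739) or 3 (0.0684) and without early HFD-LFD tumor 1 (0.0587) or 3 (0.0527). It was also lost with slide as a random block (adjusted p = 0.0661) or fixed block (-3.57, adjusted p = 0.277), and within session 1 (-1.98, adjusted p = 0.129) or session 2 (-2.04, adjusted p = 0.103).

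These 2 of 10 members, 1 in each direction, were the ones called over all tumors. The background was high: 17.8% of all genes tested were called in this comparison, 6.92% higher and 10.8% lower in early tumors. Of the called genes 39.0% were higher, and 81.5% with median centring, which turned the balance. An unadjusted p under 0.05 was found for 33.8% of genes over all tumors, 30.1% within HFD and 15.4% within HFD-LFD. The median difference of the 10 members was 0.03 log2 units, beside -0.06 for all genes.

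**Figure D2:**
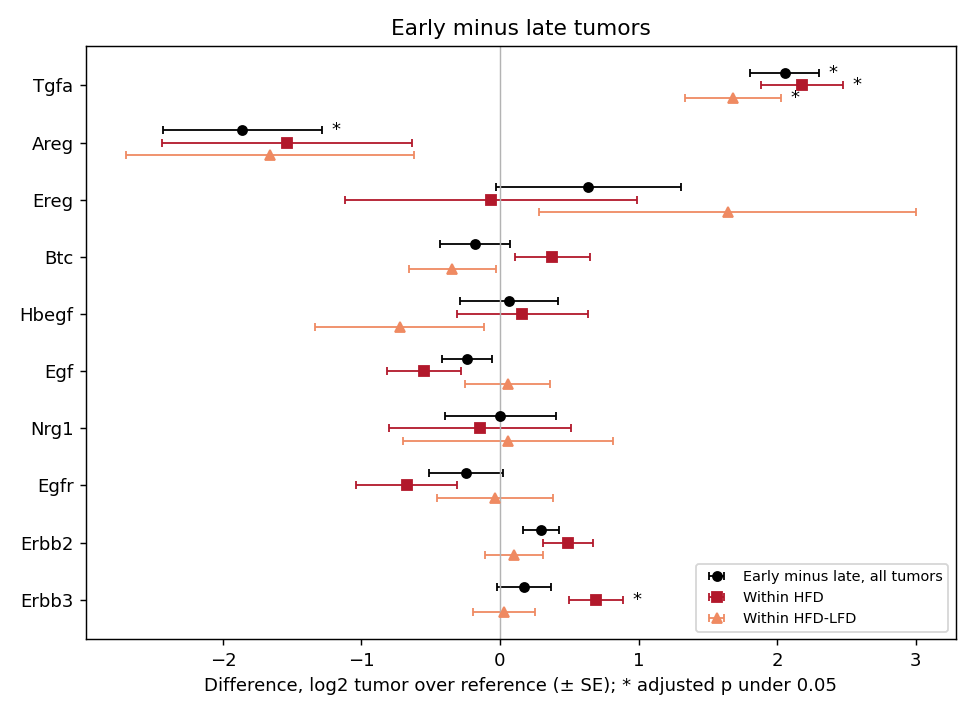
Difference between early and late tumors in log2 tumor over reference ratio (x axis, ± SE) for the 10 members (y axis), over all 24 tumors and within HFD and HFD-LFD; asterisks mark an adjusted p under 0.05. Tgfa is marked in all 3 comparisons, Areg only over all tumors and Erbb3 only within HFD.

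Levels of cell type markers differed in range between early and late tumors as well. In bulk tumors, fewer cells of a type and less RNA per cell cannot be told apart. Averaged over 20 squamous differentiation genes, each centred on its mean over tumors, early tumors ran from -0.78 to 1.86 with a median of 1.42, and late tumors from -1.75 to 4.10 with a median of -1.24. Of these 20 genes 2 were called higher in early tumors and 1 lower, beside 6.92% and 10.8% of all genes. The mean of 11 luminal genes ran from -1.86 to 0.42 in early tumors (median -1.48) and from -2.90 to 1.39 in late tumors (median 0.87), with 5 called lower, among them the estrogen receptor gene Esr1. The mean of 9 proliferation genes was at least 0.28 in early tumors (median 0.49) and ran from -1.13 to 1.13 in late tumors (median -0.21), with 6 called higher. The mean of 6 endothelial genes ran from -0.72 to -0.10 in early tumors (median -0.54) and from -0.86 to 0.90 in late tumors (median 0.18), with 1 called lower. Their part in the Tgfa and Areg differences was not tested. Over 24 tumors the squamous level gave r = 0.62 with Tgfa and -0.64 with Areg, and over the 18 late tumors 0.70 and -0.50. The late tumors with the highest squamous levels, late HFD tumor 4 (4.10) and late HFD-LFD tumor 3 (3.02), had Tgfa ratios of 1.04 and 0.79, under every early tumor. Early HFD tumor 1, the early tumor with a low squamous level (-0.78) and a luminal level of 0.42, had Tgfa at 2.53 and Areg at 2.68.

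Tgfa and Areg were inversely ordered over the tumors, given here as a description with arrays sharing slides and a common reference. Over 24 tumors Pearson's r was -0.74 and Spearman's rho -0.73, and over the 18 late tumors r was -0.70 and rho -0.61. Without slides 6 and 7 r was -0.77 over 17 tumors. The 3 late tumors with the highest Tgfa, late HFD tumor 6 (1.36) and late LFD tumors 3 (1.32) and 4 (1.27), were also the 3 late tumors with the lowest Areg (-0.42, 0.65 and 0.85). Their luminal levels were -1.29, -0.16 and -0.96. Over 24 tumors, the luminal level gave r = -0.73 with Tgfa and 0.77 with Areg, and the proliferation level 0.78 and -0.62. The endothelial level gave r = -0.61 with Tgfa and 0.78 with Areg, and the mean of 5 adipocyte genes, none of them called, -0.58 and 0.63.

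**Figure D3:**
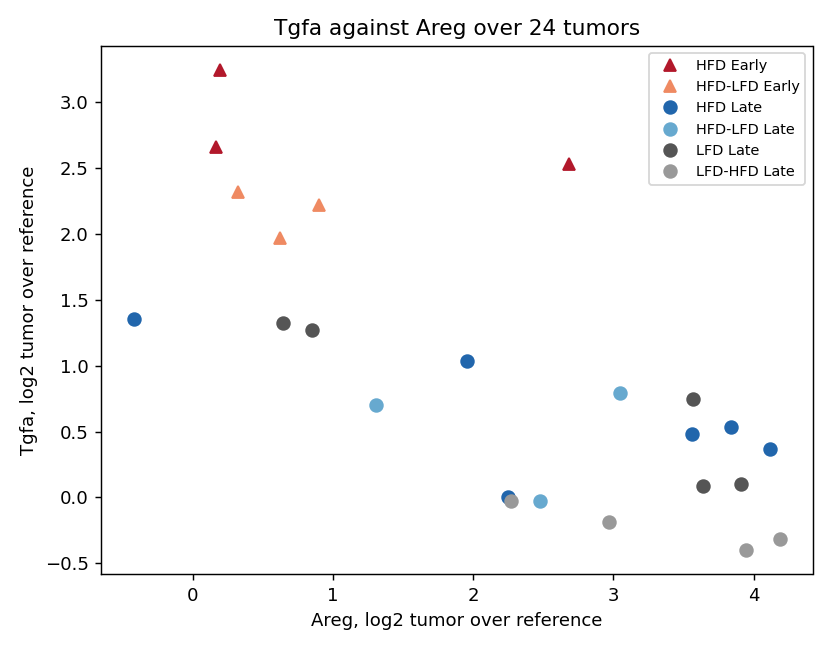
Tgfa (y axis) against Areg (x axis), both as log2 tumor over reference, with 1 point for each of 24 tumors; triangles are early and circles late tumors. Late tumors fall from upper left to lower right (r = -0.70), and the 6 early tumors lie above all of them, 5 at low Areg and 1 at 2.68.

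Ereg, which encodes epiregulin, had the widest range of the members, 6.30 log2 units. It was -0.92, 0.42 and 0.89 in early HFD tumors and 1.23, 0.18 and 1.42 in early HFD-LFD tumors. Late LFD tumors gave -1.26, -0.38, -0.13, 2.10 and -0.69, and late HFD tumors ran from -1.39 through a median of -0.51 to 4.90. The top value was that of late HFD tumor 4, which also had the top squamous level, and the next highest tumor was late LFD tumor 4. The difference between early and late tumors, 0.64 ± 0.67, did not pass the test (adjusted p = 0.527). With limma's array weights it was 1.28 (adjusted p = 0.022). Ereg was measured on 21 arrays and was well above background on 18 of them.

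Hbegf, which encodes heparin-binding EGF-like growth factor, lay between -1.03 and -0.99 in the 3 early HFD tumors, at -0.34, -0.95 and -0.45 in early HFD-LFD tumors, and at -1.63, -0.92, 0.47, -0.08 and -1.14 in late LFD tumors. In late HFD tumors it ran from -2.11 to 0.61, again with late HFD tumor 4 at the top, and late HFD-LFD tumors 1 and 2 gave 0.27 and 0.02. The early minus late difference was 0.06 ± 0.35 (adjusted p = 0.920). Among late tumors, adult HFD minus adult LFD was -1.04 ± 0.39 log2 units, with an unadjusted p of 0.0164 and an adjusted p of 0.835.
Over 21 tumors Ereg and Hbegf gave r = 0.62 and rho = 0.62. With the squamous level r was 0.80 for Ereg and 0.67 for Hbegf. Late HFD tumor 4 was the highest tumor for Ereg, Hbegf and the squamous level, and these correlations are not given without it.

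Btc, which encodes betacellulin, was 0.69, 0.26 and 0.70 in early HFD tumors and -0.74, -0.93 and -0.60 in early HFD-LFD tumors. The early groups thus did not overlap, and the share of all genes for which this held was not counted. The range of Btc also differed by scan session, with overlap: 11 tumors of session 1 lay between 0.11 and 0.70, 6 of session 2 between -0.93 and 0.57, and 7 of session 3 between -0.70 and 0.15. Early HFD tumors were all in session 1 and early HFD-LFD tumors all in session 2. For these groups session and diet cannot be told apart. Cyanine 3 signal at the Btc probe was 65, 79 and 52 in early HFD and 205, 180 and 192 in early HFD-LFD tumors. Cyanine 5, the tumor channel, overlapped, at 348, 254 and 243 against 208, 146 and 317. The part of the reference signal in the Btc gap was not tested. The early minus late difference was -0.18 ± 0.25 (adjusted p = 0.648), and -0.60 with array weights (adjusted p = 0.0243).

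Egf itself lay below the reference in every tumor. It was -1.40, -1.44 and -1.93 in early HFD tumors, -1.19, -0.61 and -1.16 in early HFD-LFD tumors, and from -1.66 to -0.09 in late tumors. The early minus late difference was -0.24 ± 0.18 (adjusted p = 0.358).

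Nrg1, the neuregulin, was 2.80, 1.09 and 0.78 in early HFD tumors and 1.52, 1.63 and 1.48 in early HFD-LFD tumors. Most late tumors lay between 0.91 and 2.51, with late HFD tumor 6 at -0.55 and late LFD tumor 3 at -0.93 below all others. Both of these also had low Areg, and over 24 tumors Nrg1 and Areg gave r = 0.58. The early minus late difference was 0.00 ± 0.40 (adjusted p = 0.996).

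**Figure D4:**
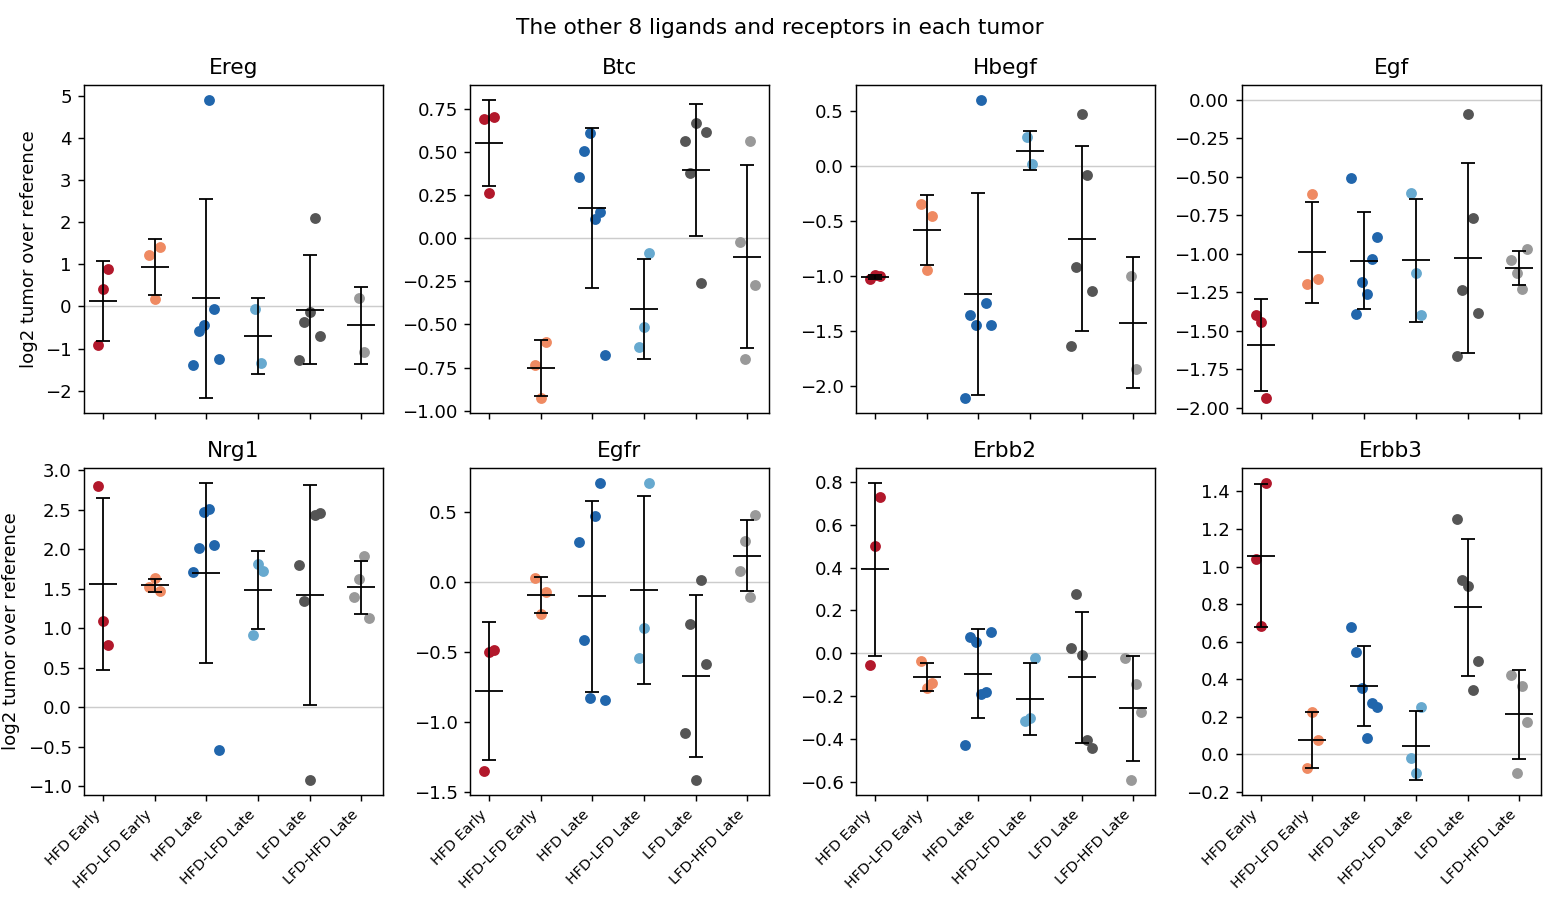
Log2 tumor over reference ratio (y axes, scaled for each gene) of the other 8 members in each tumor, by diet and onset; points are tumors and bars the group mean ± SD. Ereg reaches 4.90 in late HFD tumor 4, Nrg1 is below 0 in 2 late tumors, and Erbb3 is highest in early HFD and late LFD tumors.

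Among the receptors, Erbb3 passed a test and Egfr and Erbb2 did not. Erbb3 was 1.04, 0.69 and 1.45 in early HFD tumors and ran from 0.09 through 0.31 to 0.68 in late HFD tumors. These groups nearly touched, with 0.685 as the lowest early and 0.679 as the highest late value. The share of all genes without overlap between them was not counted. Within HFD the difference was 0.69 ± 0.19 log2 units, or 1.62-fold higher in early tumors (limma, adjusted p = 0.0237, in a comparison that called 13.2% of all genes). Within HFD-LFD, where early tumors gave -0.08, 0.23 and 0.08 and late tumors -0.02, -0.10 and 0.25, it was 0.03 ± 0.22 (adjusted p = 0.959). The test of the difference between these changes gave 0.66 ± 0.29, with an unadjusted p of 0.0357 and an adjusted p of 0.602. Late LFD tumors, at 1.26, 0.93, 0.90, 0.34 and 0.50, overlapped with early HFD tumors.

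Erbb3 also moved with the scan session. It lay between 0.09 and 1.45 in session 1, between -0.10 and 0.36 in session 2 and between -0.10 and 0.42 in session 3. All early HFD tumors were in session 1, with 4 of the 6 late HFD tumors. With session as a block the difference within HFD was 0.59 (adjusted p = 0.0455), and with slide as a random block 0.69 (adjusted p = 0.111). The call was also lost with dimmed rows kept (0.63, adjusted p = 0.0522) and in the tumor channel alone (0.77, adjusted p = 0.0655). It was lost too without early HFD tumor 1 (adjusted p = 0.0687) or 3 (0.157). Over 24 tumors Erbb3 and Btc gave r = 0.77 and rho = 0.84, and both lay above 0 in every tumor of session 1. The part of the session in this was not tested.

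**Figure D5:**
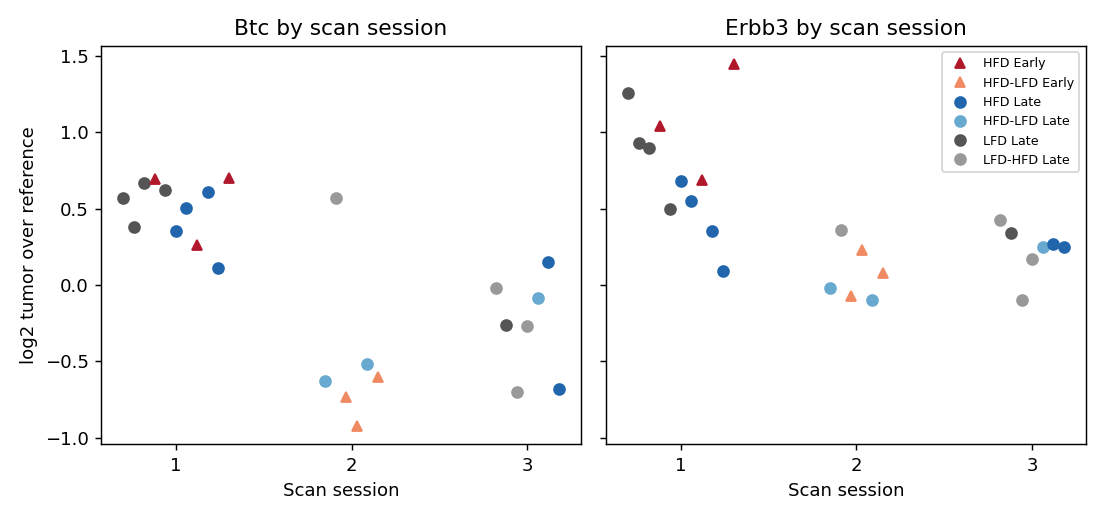
Log2 tumor over reference ratio (y axis) of Btc and Erbb3 by scan session (x axis), with 1 point for each tumor, coloured by diet and onset; triangles are early tumors. The 11 tumors of session 1 lie above 0 for both genes, and most tumors of sessions 2 and 3 lie lower.

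Erbb2 spread over 1.33 log2 units, with an SD over tumors of 0.30 beside a median of 0.38 for all genes. It was -0.05, 0.50 and 0.73 in early HFD tumors and -0.04, -0.16 and -0.14 in early HFD-LFD tumors. Late tumors lay between -0.59 and 0.27, and all 6 early tumors lay above the late median. The same held for Hbegf, with a difference of only 0.06. The share of all genes with all 6 early tumors on 1 side of the late median was not counted, for Areg and Egfr as well. The Erbb2 difference was 0.30 ± 0.13 (adjusted p = 0.111). Over all tumors it was called only with median centring (0.69, adjusted p = 0.0121), a scaling that moved the median of all genes to 0.21. Within HFD it was 0.49 ± 0.18 (adjusted p = 0.077), and it was called with median centring (1.01, adjusted p = 0.0192) and with array weights. Erbb2 and Erbb3, which signal as a pair, gave r = 0.62 and rho = 0.55 over 24 tumors. Erbb2 in late tumors had means of -0.08, -0.25 and -0.20 in sessions 1, 2 and 3. The part of the session in this correlation was not tested.

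Egfr, the receptor for 6 of the ligands, was measured by 3 probes that differed. The brightest, with 10 spots, is at chr11:16813815-16813874 and the other 2 are upstream of it, at chr11:16783556-16783615 and chr11:16787172-16787231. The array file assigns these last to a different transcript from the first. The downstream probe was -1.35, -0.50 and -0.49 in early HFD tumors, 0.02, -0.23 and -0.07 in early HFD-LFD tumors and between -1.42 and 0.71 in late tumors, a difference of -0.24 ± 0.27 (adjusted p = 0.547). When every passing probe was tested by itself, which was added after the data had been seen, the probe at 16787172 gave -0.47 ± 0.17 (adjusted p = 0.0557) and that at 16783556 gave -0.06 ± 0.18 (adjusted p = 0.850). All 6 early tumors were below the late median for the probe at 16787172, and 4 of 6 for each of the other probes. No Egfr probe passed the test.

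Between diets, with onset set aside, no member was called. Between 9 HFD and 5 LFD tumors limma called 0 of 20942 genes, and 4.41% had an unadjusted p under 0.05, with no member among them. Tgfa differed by 0.65 ± 0.52 (adjusted p = 0.962), with a mean of 1.36 ± 1.17 (SD, n = 9) on HFD that included the 3 early tumors and 0.71 ± 0.60 (SD, n = 5) on LFD. The 6 late HFD tumors had a mean of 0.63 ± 0.49. Areg differed by -0.48 ± 0.86 (adjusted p = 0.973) and Egfr by 0.35 ± 0.34 (adjusted p = 0.962).

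Among late tumors alone, limma called no gene for the pubertal diet (8.98% with an unadjusted p under 0.05) or the adult diet (5.86%). For Tgfa, pubertal HFD minus pubertal LFD was 0.32 ± 0.21 (adjusted p = 0.638) and adult HFD minus adult LFD -0.40 ± 0.21 (adjusted p = 0.846). The 4 late LFD-HFD tumors had the lowest Tgfa values of all 24, between -0.40 and -0.03, next to -0.02 in a late HFD-LFD tumor. This order depended on the processing. With dimmed rows kept, late LFD-HFD tumors 1 and 4 gave -0.018 and 0.087, above late HFD-LFD tumor 2 at -0.023. For Areg the same differences were -0.52 ± 0.62 and 0.55 ± 0.62. For Erbb3 pubertal HFD minus pubertal LFD was -0.29 ± 0.13, with an unadjusted p of 0.0389 and an adjusted p of 0.542. The difference of the changes with onset between HFD and HFD-LFD likewise gave 0 genes called by limma, with 8.02% at an unadjusted p under 0.05, Erbb3 among them.

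Groups differed most in order for Tgfa. Early HFD (2.81 ± 0.38, SD) and early HFD-LFD (2.17 ± 0.18) stood apart from each other and from the late groups. Late LFD (0.71), late HFD (0.63) and late HFD-LFD (0.49) overlapped. The 2 early groups were on slides 2 and 4 and in sessions 1 and 2, so slide, session and diet cannot be told apart. These 2 groups did not overlap for Btc, Hbegf, Egf, Erbb3 and the downstream Egfr probe either. The share of all genes without overlap between them was not counted. Cyanine 3 signal at the Tgfa probe was 52, 61 and 46 in early HFD and 79, 80 and 85 in early HFD-LFD tumors. Its part in the gap was not tested. For Areg the order ran from late LFD-HFD (3.34 ± 0.89) through late HFD (2.55 ± 1.70), late LFD (2.52 ± 1.62), late HFD-LFD (2.28 ± 0.89) and early HFD (1.01 ± 1.44) to early HFD-LFD (0.62 ± 0.29), and each neighbour overlapped with the next. For Ereg, Nrg1, Egfr, Btc, Erbb2 and Erbb3 all neighbouring groups overlapped too. For Hbegf, late HFD-LFD (n = 2) lay above early HFD-LFD without overlap. For Egf, early HFD lay below late LFD-HFD without overlap. The share of all genes was not counted for these either.

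The rest of the pathway was followed through 5 lists. Of the other family members, Nrg4, a neuregulin, fell in early tumors by 1.29 ± 0.42 log2 units (adjusted p = 0.0381), and Erbb4 (-0.80 ± 0.29, adjusted p = 0.0578), Epgn and Nrg2 did not pass. Nrg3 did not pass the filter. Of 10 sheddases and their regulators, 3 fell: the metalloproteinases Adam15 by 0.58 ± 0.15 (adjusted p = 0.0118), Adam9 by 0.53 ± 0.16 (adjusted p = 0.0219) and Adam12 by 0.43 ± 0.14 (adjusted p = 0.035). Adam17, the main sheddase of TGF-alpha and amphiregulin, gave 0.13 ± 0.11 (adjusted p = 0.450). The median of this list was -0.33, beside -0.06 for all genes. Of all genes 10.8% were called lower, and the balance of directions turned with median centring.

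Of 14 genes listed under receptor inhibitors 2 rose and 2 fell. Whether each of them inhibits the receptors in these tumors was not tested. Lrig3 rose by 0.99 ± 0.21 (adjusted p = 0.0035), while Lrig1, which promotes the breakdown of ErbB receptors, fell by 0.71 ± 0.19 (adjusted p = 0.0128). The receptor phosphatase gene Ptprj fell by 1.15 ± 0.24 (adjusted p = 0.00341). Of 21 adaptors and proximal effectors 5 rose and 4 fell. Pik3cb, a catalytic subunit of PI 3-kinase, rose by 0.61 ± 0.17 (adjusted p = 0.016), and the prolactin-responsive factors Stat5a and Stat5b fell by 1.88 ± 0.45 (adjusted p = 0.00833) and 0.87 ± 0.21 (adjusted p = 0.0072). Of 13 immediate-early response genes, Klf2 alone was called, and it fell by 0.84 ± 0.24 (adjusted p = 0.0175). Fos gave -0.69 ± 0.28 (adjusted p = 0.0805) and Egr1 -0.32 ± 0.32 (adjusted p = 0.502). These counts stand beside the 6.92% higher and 10.8% lower among all genes, a split that turned with median centring.

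The 2 genes whose pattern was most like that of a member were taken, for 9 of the members, by Pearson's r over at least 17 shared arrays. For Tgfa these were a transcript known in the file only by an Ensembl identifier (r = 0.92) and Tnfrsf19 (0.91), both over 24 arrays, and for Areg Cyp3a25 (0.95) and Cldn10 (0.92) over 21. For Ereg they were Tdh (0.97) and Gm94 (0.94) over 17, and for Hbegf Pinlyp (0.86 over 21) and Endou (0.85 over 17). The highest r was 0.86 for Btc (Acadm, 20 arrays), 0.79 for Egf (Dusp26, 20), 0.86 for Egfr (Ndor1, 19), 0.82 for Erbb2 (Zfp207, 20) and 0.92 for Erbb3 (Mgat2, 20). The second genes were Cped1 for Btc (0.83, 24 arrays), an Ensembl transcript for Egf (0.78, 21), Lamtor3 for Egfr (0.85, 24), Urb1 for Erbb2 (0.81, 23) and Abi1 for Erbb3 (0.89, 20).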

How the data were processed

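As deposited, the intensity values of each array are the scanner software's mean spot and median local background brightness in each dye, and the log10 values are its own dye-normalized ratios (Agilent Feature Extraction 11.0.1.1 per the file headers; the labels name 8.5.1.1). Probe positions are on mm9. The authors' filter, lowess normalization and imputation are not in these files. Here, intensities were background-corrected by normexp (offset 50), normalized by loess within arrays (span 0.3) and averaged over spots of a probe in R 4.3.3 with limma 3.58.1. Spots with outlier flags, a local background over 2 times the array's median, or in dimmed rows (18.8% to 24.5% of spots on slides 6 and 7) were set missing. The limit for dimmed rows, and the choice that a background population flag alone did not remove a spot, were set after the data had been seen. The filter kept 27278 of 39429 probes, those whose background-subtracted signal exceeded 10 in each dye on 80% or more of the usable arrays and that had values on 17 or more. Names came from RefSeq for 31375 probes. For each gene the brightest probe was tested.

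Comparisons were limma's moderated tests, two-sided, with Benjamini-Hochberg adjustment over 20942 genes: 2 classes for early against late and for HFD against LFD, and contrasts of 6 group means over 24 arrays for the rest. Named genes were the 10 members and, in each pathway list, at most 3 called genes with the smallest p. Genes quoted as not called, and Esr1, were chosen after their values were seen. The members and lists were chosen with earlier results of these data known. The genes most like Nrg1 are not reported here. The steps were tested on simulated data. Per array, the tumor channel was well above background for 66.8% to 89.2% of probes. The number of arrays limits the precision.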

Additional observations from a re-analysis of the deposited data

Results flagged for a closer look

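In 38 groups of 4 to 10 tumors examined, 4 values stood far from the rest of their group, by the gap to the nearest tumor over the group's range. Chance alone flags about 1 in 20 such groups. Ereg was 4.90 in late HFD tumor 4 and at most -0.06 in the other 5 late HFD tumors. Hbegf was 0.61 in the same tumor and at most -1.25 in the others. This tumor had the highest squamous level of all 24 (4.10) and the lowest luminal level (-2.90). Nrg1 was -0.55 in late HFD tumor 6 and at least 1.71 in the other 5. Areg was 2.68 in early HFD tumor 1 and at most 0.90 in the other 5 early tumors.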

How the results depend on the processing

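No paired analysis was possible because replicate numbers were given in accession order and no label pairs tumors. The Tgfa difference kept its direction under 20 alternatives (1.97 to 2.85) and its call under 19, and in all 24 fits without 1 tumor (1.90 to 2.16). Areg kept its direction (-3.57 to -1.70) and its call under 16 of 20. The number of members called over all tumors, 2, became 1 with slide as a random block, 0 with slide as a fixed block, 3 with median centring, 4 with array weights, and 1 in session 1 and 1 in session 2 alone. Within HFD, 2 became 1 with dimmed rows kept, with slide as a random block or with the tumor channel alone, 3 with median centring and 4 with array weights. Within HFD-LFD, 1 became 0 with the scanner's log ratio, dimmed rows kept, slide as a random block or the tumor channel alone. Without 1 tumor these counts ran from 1 to 2, from 1 to 2 and from 0 to 1. The other 4 counts, of 0, did not change. The cause of these changes was not tested, beyond the fewer tumors of the subsets. Over all genes, 3718 were called, 1802 with slide as a random block, 74 with slide as a fixed block, 7698 with array weights, 2369 with dimmed rows kept, and 2073 to 4564 without 1 tumor, lowest without early HFD tumor 2. The share higher in early tumors, 39.0%, was 81.5% with median centring, 58.3% with the tumor channel alone and 21.6% with slide as a fixed block.

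Differences that were not called changed sign as follows. Nrg1 was -0.016 without background correction, -0.047 with dimmed rows kept, -0.090 without slides 6 and 7, -0.056 and -0.38 with slide as a random and fixed block, -0.072 with session as a block, -0.13 with array weights, -0.50 in the tumor channel alone, -0.12 and -0.0071 in sessions 1 and 2, and -0.021 with bands of rows centred, an alternative added after the data had been seen. Hbegf was -0.038 with normexp on all spots, -0.065 with session as a block, -0.068 and -0.061 in sessions 1 and 2, and -0.017 with groups weighted equally. Egfr was 0.12 with median centring, 0.0068 without slides 6 and 7, 0.015 with slide as a fixed block and 0.24 in session 2. Egf was 0.015 with median centring, 0.24 with slide as a fixed block and 0.14 in the tumor channel alone. Erbb3 was -0.29 with slide as a fixed block, -0.15 with array weights and -0.0061 in session 2, and Btc was 0.075 in session 1. Without 1 tumor, Nrg1 ran from -0.25 to 0.16, Hbegf from -0.027 to 0.17 and Erbb3 from -0.0036 to 0.30. Setting spots with a background population flag missing, also added later, left Areg with too few values to test within HFD-LFD and kept its call over all tumors (adjusted p = 0.0493).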

Other observations

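Epgn, Ereg, Areg and Btc, 4 ligands of the EGF receptor, are neighbours on chromosome 5, with probes that span 323 kb on mm9 from 91464119 to 91787007. Epgn, which encodes epigen, was close to Ereg (r = 0.88, rho = 0.80 over 21 tumors), and r was 0.71 without late HFD tumor 4, in which both reached their highest values (5.77 for Epgn and 4.90 for Ereg). Areg, whose probe lies between those of Ereg and Btc, gave r = -0.35 with Ereg, -0.21 with Epgn and 0.41 with Btc. These correlations describe tumors that share slides and a reference. Over all 20942 genes, the SD over tumors was smaller than that of Areg for 98.1%, than that of Ereg for 98.0%, than that of Tgfa for 95.0% and than that of Erbb2 for 31.8%.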
